A study of Rattus norvegicus with 8 samples.

Results

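The circadian clock genes described here are 10 genes listed by name, Arntl, Clock, Per1, Per2, Per3, Cry1, Cry2, Nr1d1, Nr1d2 and Dbp. The list was chosen with earlier results of these data known. All 10 were found in the deposited count table of 17337 genes, and all 10 passed the filter on low counts. RNA was sequenced from periodontal ligament (PDL), the connective tissue between tooth root and jaw bone, laser-captured at the cervical region of rat teeth. The later group was 28 days old (P28, 4 animals) and the earlier group 18 days old (P18, 4 animals); both grew normally and without treatment, and the teeth come into occlusal contact between these ages. Neither a strain, a sex nor an hour of collection is given in the labels, so the time of day behind each level is unknown, and a difference in hour between the ages cannot be told apart from age.

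The clock of mammalian cells is a transcriptional loop that runs through about a day. BMAL1 (encoded by Arntl) and CLOCK bind E-boxes and switch on the Per, Cry, Nr1d1, Nr1d2 and Dbp genes; PER and CRY proteins then repress BMAL1 and CLOCK. The REV-ERB receptors (Nr1d1 and Nr1d2) repress Arntl at ROR elements, and DBP activates D-box genes such as Per2, so that in a rhythmic tissue Arntl peaks at the opposite time of day from Nr1d1 and Dbp.

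These elements tie the members to one another, and they are shown here where the promoters hold them. RefSeq promoters (GRCr8, 250 bases before to 50 after the annotated start) were searched for 9 of the members, all but Cry1. On both strands, the E-box CACGTG is held by 6.65% of all 27457 promoters, the D-box TTATGNAA by 3.54%, the ROR element TNGGTCA by 11.2% and the cyclic AMP response element TGACGTCA by 1.91%. The Arntl window held 1 ROR element and the Per2 window 1 D-box, and the other 7 held none of these 4 motifs, which says only that these letters are not in those windows. The window of Ciart, an E-box repressor outside the members, held 3 E-boxes. The 4 windows printed are those of Arntl (chr1:176766078-176766377, plus strand), Per2 (chr9:99496944-99497243, minus strand), Ciart (chr2:186112197-186112496, minus strand) and Clock (chr14:32262500-32262799, plus strand); the last is shown because Clock separated the ages. Capitals mark the ROR element, the D-box and the E-boxes, and a match is a description, not a bound site.
Arntl: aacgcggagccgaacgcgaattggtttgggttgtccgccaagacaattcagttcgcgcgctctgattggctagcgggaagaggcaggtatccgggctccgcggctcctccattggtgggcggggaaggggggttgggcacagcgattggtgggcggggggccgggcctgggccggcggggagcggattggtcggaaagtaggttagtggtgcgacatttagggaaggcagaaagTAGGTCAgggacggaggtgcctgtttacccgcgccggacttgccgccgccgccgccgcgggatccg
Per2: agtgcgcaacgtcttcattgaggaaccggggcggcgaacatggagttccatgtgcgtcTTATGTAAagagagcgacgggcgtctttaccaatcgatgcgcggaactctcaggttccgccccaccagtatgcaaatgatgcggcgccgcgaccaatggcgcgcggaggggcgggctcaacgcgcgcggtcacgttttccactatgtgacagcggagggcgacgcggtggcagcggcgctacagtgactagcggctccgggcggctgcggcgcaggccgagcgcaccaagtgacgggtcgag
Ciart: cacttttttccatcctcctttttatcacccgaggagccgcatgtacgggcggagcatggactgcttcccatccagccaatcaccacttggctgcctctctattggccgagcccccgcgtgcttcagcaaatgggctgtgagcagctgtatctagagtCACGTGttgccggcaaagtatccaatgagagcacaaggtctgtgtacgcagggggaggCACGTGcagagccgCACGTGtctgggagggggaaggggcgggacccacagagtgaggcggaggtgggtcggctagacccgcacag
Clock: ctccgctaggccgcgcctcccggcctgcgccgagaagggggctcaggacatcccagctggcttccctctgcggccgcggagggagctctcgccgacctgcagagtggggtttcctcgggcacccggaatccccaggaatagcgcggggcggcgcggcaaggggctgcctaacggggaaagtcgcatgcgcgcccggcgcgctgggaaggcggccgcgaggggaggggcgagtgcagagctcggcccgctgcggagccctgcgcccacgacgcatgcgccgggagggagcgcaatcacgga

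Total counts were 5252693 to 17803006 per library at P28 and 10863769 to 26645656 at P18. Over the 8 libraries the members held between 1241 counts (the lowest member) and 10520 counts (the highest), and 9 of the 10 had at least 10 counts in every library. Ligament markers Col1a1, Col3a1, Postn and Tnmd were present in every library, while Aspn was at or near 0 throughout. P28 replicate 4 stood apart: across genes, which are not independent replicates, it correlated with the other P28 libraries at 0.750 to 0.766, against 0.813 to 0.827 among those. At P18 replicate 1 did so too, at 0.7805 to 0.789, against 0.8157 to 0.8352 among the other P18 libraries. Levels are given as CPM (counts as a share of library size, adjusted by TMM factors), and fold changes as log2 of P28 over P18 with their SE. Levels are compared for 1 gene between libraries and never between genes, since transcript lengths were not used.

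Among the 10 clock genes, 0 were called between the ages by the edgeR quasi-likelihood test (adjusted p under 0.05), against 0.936% of the 10472 genes tested. At an unadjusted p under 0.05 there were 2 members, Arntl and Clock, where 14.5% of all tested genes stood. The DESeq2 Wald test called 1 member, Clock, against 5.3% of all genes, and limma voom with quality weights called 0 (2.93% of all genes). Of the members 7 had a log2 fold change above 0 and 3 below, with a median of 0.25 beside 0.01 for all tested genes. Over all tested genes 5267 were above 0 and 5205 below. For 1 of the 10, Clock, the ages did not overlap, a share close to the 10.4% of all tested genes without overlap. In captured tissue, fewer cells of a type and less RNA per cell cannot be told apart.

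**Figure D1:**
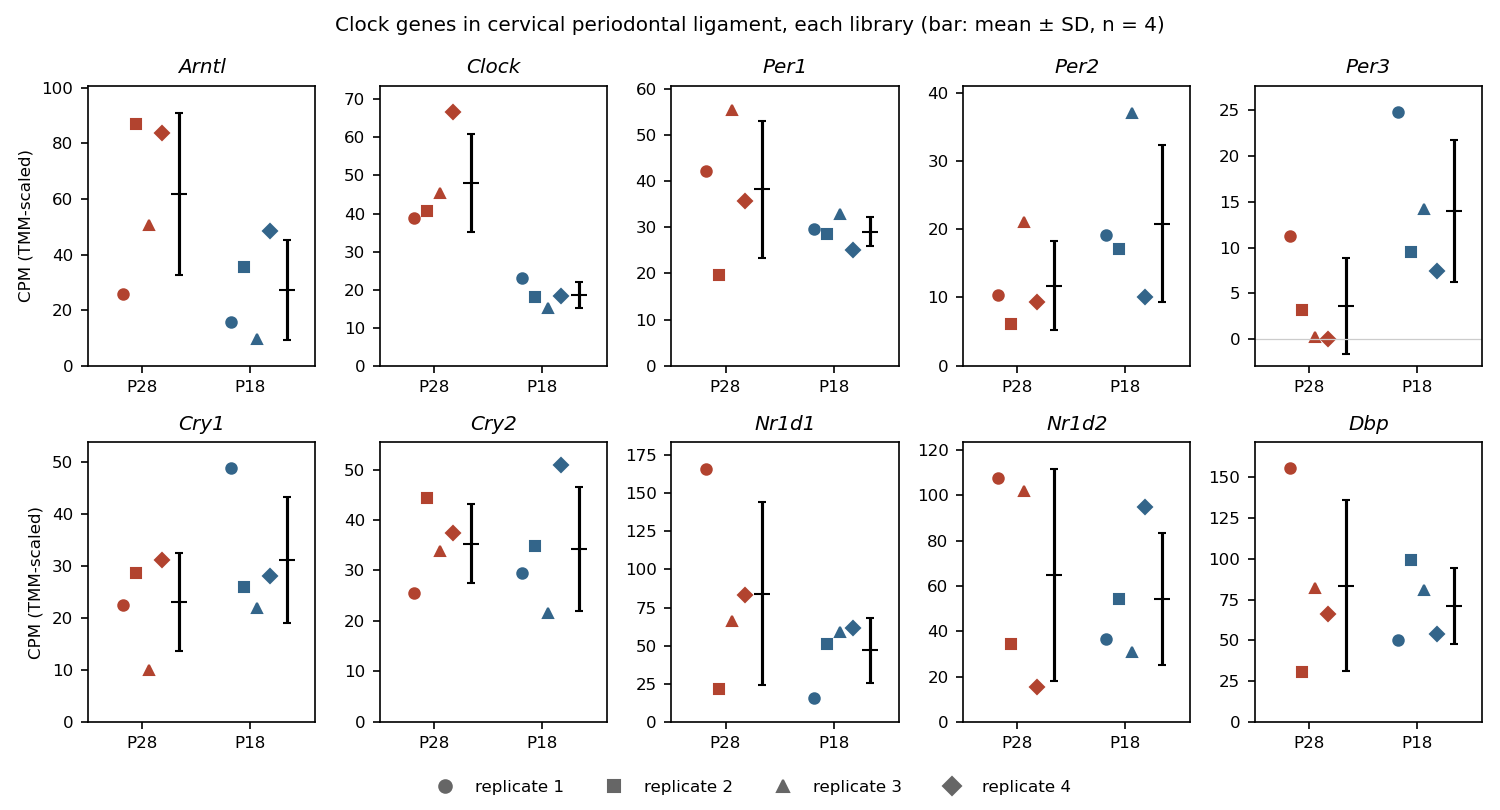
Level of each clock gene in CPM (vertical axis, linear) in the 4 P28 libraries (left, red) and the 4 P18 libraries (right, blue); symbols mark the replicate and black bars the mean ± SD. Clock is the only panel in which the ages do not overlap, with 38.9 to 66.8 CPM at P28 and 15.1 to 23.0 CPM at P18.

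Clock, the partner of BMAL1 in the activating pair, gave the clearest separation. It lay at 38.9, 40.6, 45.5 and 66.8 CPM in replicates 1 to 4 of P28, against 23.0, 17.9, 15.1 and 18.2 CPM in replicates 1 to 4 of P18. Every P28 library lay above every P18 library, and the libraries of an age differed by at most 1.72-fold. The means were 48.0 ± 12.9 CPM at P28 and 18.6 ± 3.29 CPM at P18 (SD, n = 4 each), a log2 fold change of 1.37 ± 0.36. This did not pass over all genes (edgeR adjusted p = 0.0991). An unadjusted exact permutation test gave 0.0286, the lowest p possible with 4 libraries per age. Any gene whose ages do not overlap gets that p, so it only restates the separation. Clock passed in the DESeq2 Wald test (adjusted p = 0.0110), and over all 16 alternatives the adjusted p ran from 0.0110 to 0.251. Leaving out 1 library at a time, its log2 fold change was 1.17 to 1.49, and 1.17 without P28 replicate 4 (edgeR adjusted p = 0.121). Clock overlaps 2 lncRNA genes in the RefSeq annotation (GRCr8), and without a stated strand setting the reads of overlapping genes cannot be told apart.

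Arntl, which encodes BMAL1, lay at 25.8, 87.1, 50.6 and 83.6 CPM in replicates 1 to 4 of P28, against 15.5, 35.4, 9.56 and 48.6 CPM in replicates 1 to 4 of P18. The ages overlapped: 3 of the 4 P28 libraries lay above all P18 libraries, while P28 replicate 1 lay below 2 of them. Its means were 61.8 ± 29.1 CPM at P28 and 27.3 ± 18.0 CPM at P18 (SD, n = 4 each), and its log2 fold change was 1.18 ± 0.53 (edgeR adjusted p = 0.336; exact permutation p = 0.114). Within an age the highest library held 3.37 times the lowest at P28 and 5.08 times at P18.

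The period genes, which encode the PER repressors, did not share a direction. Per1 lay at 42.1, 19.6, 55.4 and 35.6 CPM in replicates 1 to 4 of P28, against 29.6, 28.6, 32.8 and 25.1 CPM in replicates 1 to 4 of P18. The P18 libraries lay close together, within 1.31-fold, and the P28 libraries spread to both sides of them (2.82-fold). Its log2 fold change was 0.39 ± 0.39 (edgeR adjusted p = 0.693), and 0.16 to 0.61 leaving out 1 library at a time. Per2, the gene with the D-box shown, lay at 10.3, 6.06, 21.1 and 9.36 CPM in replicates 1 to 4 of P28, against 19.2, 17.0, 37.1 and 10.03 CPM in replicates 1 to 4 of P18. Here 2 P28 libraries lay below all P18 libraries, and the other 2 lay inside the P18 range. The log2 fold change of Per2 was -0.83 ± 0.62 (edgeR adjusted p = 0.594), and -1.28 to -0.41 leaving out 1 library at a time.

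Per3 had the lowest counts of the members and the widest spread. Its counts were 191, 30, 3 and 0 in replicates 1 to 4 of P28, against 274, 263, 333 and 147 in replicates 1 to 4 of P18. As levels these were 11.2, 3.13, 0.245 and 0 CPM at P28 and 24.8, 9.47, 14.2 and 7.48 CPM at P18, and the 0 of P28 replicate 4 is compatible with up to 3 counts, or 0.624 CPM. All but 1 of the P28 libraries lay below every P18 library, and P28 replicate 1 lay inside the P18 range. The log2 fold change was -1.92 ± 1.27 (edgeR adjusted p = 0.531; exact permutation p = 0.0857), and ran from -3.60 to -1.50 leaving out 1 library at a time. It was -3.60 ± 1.41 without P28 replicate 1 and -3.52 ± 1.54 with a replicate block (edgeR adjusted p = 0.316 and 0.356), against -1.52 ± 1.08 without P28 replicate 4.

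The cryptochrome genes encode the partners of PER in repression. Cry1 lay at 22.6, 28.6, 9.95 and 31.2 CPM in replicates 1 to 4 of P28, against 48.9, 25.9, 21.9 and 28.1 CPM in replicates 1 to 4 of P18. The ages overlapped, with P28 replicate 3 the lowest and P18 replicate 1 the highest of the 8. Cry2 lay at 25.5, 44.3, 33.8 and 37.4 CPM in replicates 1 to 4 of P28, against 29.6, 34.8, 21.6 and 50.8 CPM in replicates 1 to 4 of P18. All 4 P28 values of Cry2 fell inside the P18 range. The log2 fold changes were -0.44 ± 0.47 for Cry1 and 0.04 ± 0.38 for Cry2 (edgeR adjusted p = 0.723 and 0.976).

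The REV-ERB genes encode the nuclear receptors that repress Arntl. Nr1d1 lay at 166, 21.5, 66.5 and 83.0 CPM in replicates 1 to 4 of P28, against 15.8, 51.4, 59.0 and 61.6 CPM in replicates 1 to 4 of P18. P28 replicate 1 was the highest of all 8 and P18 replicate 1 the lowest, and the highest P28 library held 7.70 times the lowest. Its log2 fold change was 0.84 ± 0.54 (edgeR adjusted p = 0.522), 0.28 without P28 replicate 1 and 1.16 without P28 replicate 2. Nr1d1 overlaps Thra, a thyroid hormone receptor gene, in the RefSeq annotation (GRCr8), and without a stated strand setting their reads cannot be told apart where they overlap. Thra lay at 112, 74.7, 95.7 and 37.0 CPM in replicates 1 to 4 of P28, against 59.7, 63.3, 54.8 and 48.4 CPM in replicates 1 to 4 of P18. At P28 replicate 1 was the highest library for both genes, but replicate 4 was the lowest for Thra and second highest for Nr1d1. At P18 replicate 4 was the lowest for Thra and the highest for Nr1d1.

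Nr1d2 lay at 108, 34.5, 102 and 15.2 CPM in replicates 1 to 4 of P28, against 36.5, 54.3, 30.8 and 95.04 CPM in replicates 1 to 4 of P18. The P28 libraries split into 2 above and 1 below all P18 libraries, and P28 replicate 4, above every P18 library for Nr1d1, was the lowest of the 8 here. The log2 fold change was 0.26 ± 0.56 (edgeR adjusted p = 0.877), and 0.59 ± 0.47 without P28 replicate 4. Dbp, the D-box activator, lay at 155, 30.4, 82.4 and 66.2 CPM in replicates 1 to 4 of P28, against 50.4, 99.1, 80.7 and 53.7 CPM in replicates 1 to 4 of P18. Its highest and its lowest value were both at P28, in replicates 1 and 2. Its log2 fold change was 0.24 ± 0.42 (edgeR adjusted p = 0.850) and was -0.25 without P28 replicate 1.

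**Figure D2:**
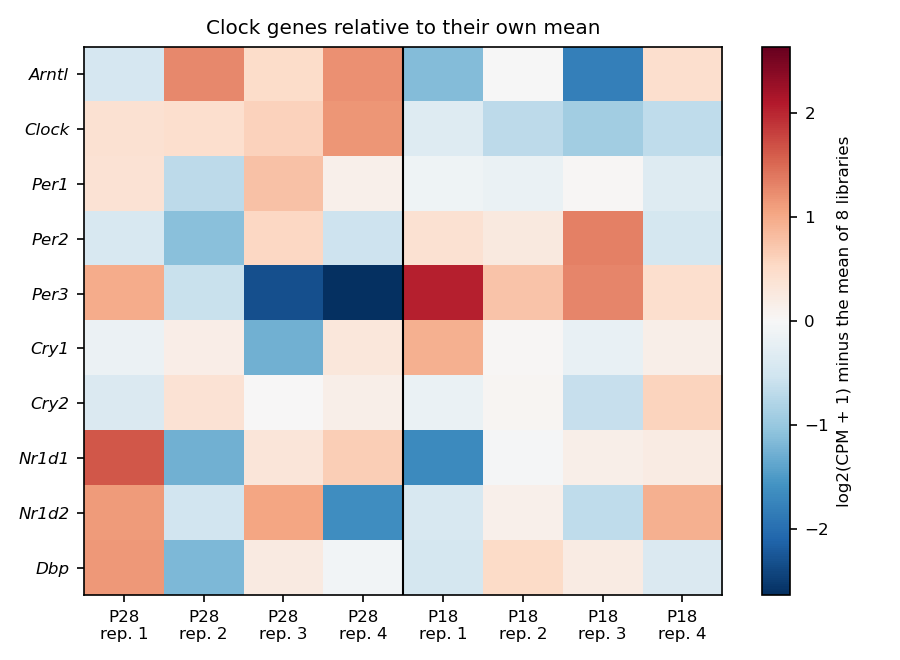
Clock genes (rows) in each library (columns, P28 left and P18 right), coloured by log2(CPM + 1) minus the gene's mean over the 8 libraries. The Clock row is the only one with every P28 library above and every P18 library below the gene's mean. P28 replicates 1 and 2 differ most in the rows of Nr1d1 and Dbp.

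Animals of the same age differed in several members at once. At P28, replicate 1 was the lowest library for Arntl and Cry2 and the highest for Nr1d1, Nr1d2 and Dbp. P28 replicate 2 was the highest for Arntl and Cry2 and the lowest for Nr1d1, Dbp, Per1 and Per2. The order of the P28 libraries by Dbp (replicates 1, 3, 4 and 2, from high to low) was the reverse of that by Arntl. At P18 the order by Dbp was 2, 3, 4 and 1 and by Arntl 4, 2, 1 and 3, which is not a reversal. Arntl and Cry2 ordered the libraries alike at each age, as did Per1 and Per2. These pairs were picked from the 45 pairs of members, and their orders were not tested.

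Ratios between members within a library show the same spread without a scaling between libraries. Only their differences between libraries are read, since the ratio itself depends on transcript length. The log2 ratio of Nr1d1 to Arntl was 2.68, -2.02, 0.39 and -0.01 in replicates 1 to 4 of P28, against 0.02, 0.54, 2.62 and 0.34 in replicates 1 to 4 of P18. It spanned a wide range at both ages, with P28 replicate 1 and P18 replicate 3 high and P28 replicate 2 low. That of Dbp to Arntl was 2.59, -1.52, 0.70 and -0.34 in replicates 1 to 4 of P28, against 1.70, 1.49, 3.08 and 0.14 in replicates 1 to 4 of P18. Among 6 such ratios and that of Npas2 to Clock, all chosen after the levels were seen, Per1 to Per2 did not overlap between the ages. The log2 ratio of Per1 to Per2 was 2.03, 1.70, 1.39 and 1.93 in replicates 1 to 4 of P28, against 0.63, 0.75, -0.17 and 1.32 in replicates 1 to 4 of P18. It was not tested, since it combines members.

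**Figure D3:**
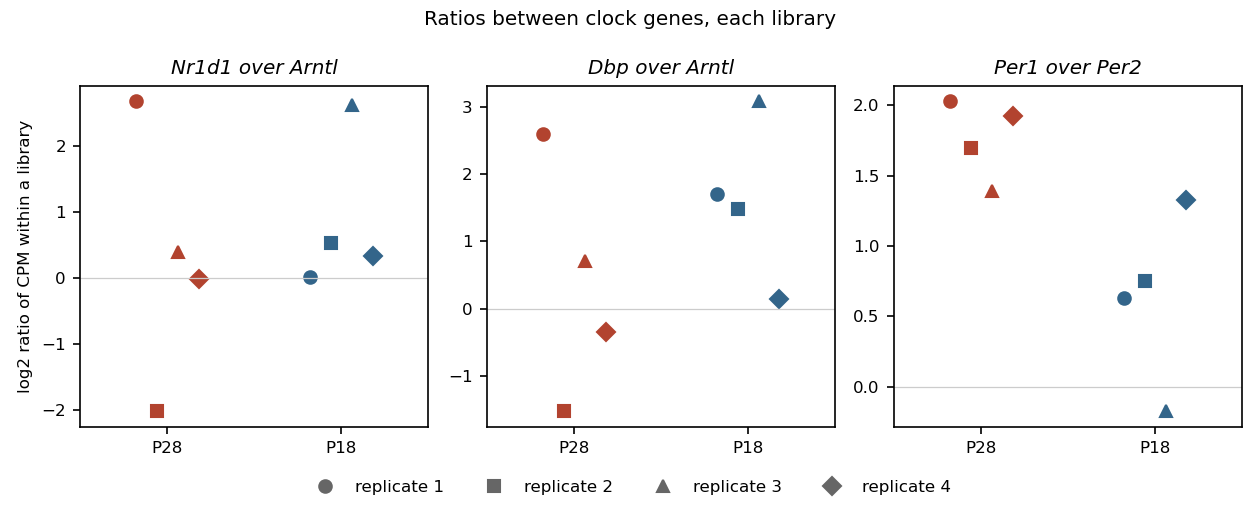
Log2 ratio of CPM between 2 clock genes within each library (vertical axis), P28 left and P18 right, with symbols for replicates. Nr1d1 over Arntl and Dbp over Arntl overlap widely between ages, while Per1 over Per2 lies at 1.39 to 2.03 at P28 and -0.17 to 1.32 at P18.

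The spread within an age was largest for Per3, with a pooled SD of 2.14 on the log2 CPM scale, followed by 1.08 for Nr1d1 and 1.08 for Nr1d2. It was 0.95 for Arntl and 0.76 for Dbp. Clock, at 0.31, varied least, and Cry2 and Per1 followed at 0.43 and 0.46. The median over the 10 members was 0.76, and over the 6109 tested genes in the same range of mean level it was 0.74.

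Of 47 further clock pathway genes in the count table, 42 were tested and 0 were called by edgeR, against the same 0.936% of all genes. At an unadjusted p under 0.05 there were 10 of the 42 (14.5% of all genes), and the DESeq2 Wald test called 2 (5.3% of all genes) and limma voom 2 (2.93% of all genes). There were 26 log2 fold changes above 0, 16 below and a median of 0.13. Without overlap between ages were 5 of the 42, among them Npas2, Csnk1d, Tsc22d3 and Junb, against the same 10.4% of all genes. The gaps were narrow for Csnk1d (highest P28 146.4 CPM, lowest P18 146.8 CPM) and Tsc22d3 (lowest P28 371 CPM, highest P18 367 CPM). Among further transcription factors of the loop, 5 of 7 were tested. Npas2, a paralogue of Clock that also pairs with BMAL1, lay at 22.7, 59.4, 64.0 and 20.2 CPM in replicates 1 to 4 of P28, against 5.42, 2.77, 10.8 and 11.1 CPM in replicates 1 to 4 of P18. Like Clock it was higher in every P28 library than in any P18 library. Its log2 fold change was 2.47 ± 0.61 (edgeR adjusted p = 0.0842). The exact permutation p of 0.0286 only restates the lack of overlap, as for Clock. Npas2 was called without P28 replicate 4 (2.69, edgeR adjusted p = 0.0481) and by the DESeq2 Wald test (adjusted p = 0.00248). Over the 16 alternatives its adjusted p ran from 0.00248 to 0.217.

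The other D-box factors had log2 fold changes below 0, and neither passed the test. Nfil3, the D-box repressor, lay at 11.3, 32.1, 14.9 and 31.0 CPM in replicates 1 to 4 of P28, against 90.9, 43.8, 36.7 and 27.8 CPM in replicates 1 to 4 of P18. Tef, a relative of Dbp, lay at 62.2, 22.4, 59.4 and 8.53 CPM in replicates 1 to 4 of P28, against 60.9, 111, 59.1 and 54.9 CPM in replicates 1 to 4 of P18. Both overlapped between the ages, with 2 P28 libraries of each below all P18 libraries. Their values were -1.16 ± 0.49 for Nfil3 and -0.90 ± 0.52 for Tef as log2 fold changes (edgeR adjusted p = 0.294 and 0.472). Bhlhe40, an E-box repressor, had one of -0.53 ± 1.12 (edgeR adjusted p = 0.879), with 0 counts in P28 replicate 4. Ciart, whose promoter holds the 3 E-boxes, was too low to be tested and is named for that promoter, after its values were seen. It had 3, 1, 26 and 0 counts in replicates 1 to 4 of P28, against 0, 135, 92 and 0 in replicates 1 to 4 of P18, so libraries at or near 0 were found at both ages.

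Among 17 tested regulators of clock proteins, 9 had a log2 fold change above 0 and 8 below, with a median of 0.02. Csnk1d, a casein kinase that phosphorylates PER, averaged 108 ± 29.6 CPM at P28 and 166 ± 19.0 CPM at P18 (SD, n = 4 each), and its log2 fold change was -0.63 ± 0.23 (edgeR adjusted p = 0.223). Btrc, a ubiquitin ligase part that marks PER for degradation, averaged 14.1 ± 8.44 CPM at P28 and 38.6 ± 14.0 CPM at P18, and its log2 fold change was -1.45 ± 0.56 (edgeR adjusted p = 0.250). Nono, an RNA-binding partner of PER, had a log2 fold change of -0.44 ± 0.20, and the acetyltransferase gene Crebbp one of 0.75 ± 0.35 (edgeR adjusted p = 0.335 and 0.351). Csnk1d overlaps Slc16a3 in the RefSeq annotation, so its counts carry the same strand limit as those of Clock and Nr1d1. Npas2, Per2, Cry1, Cry2 and Wee1 also overlap other RefSeq genes and carry it too.

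**Figure D4:**
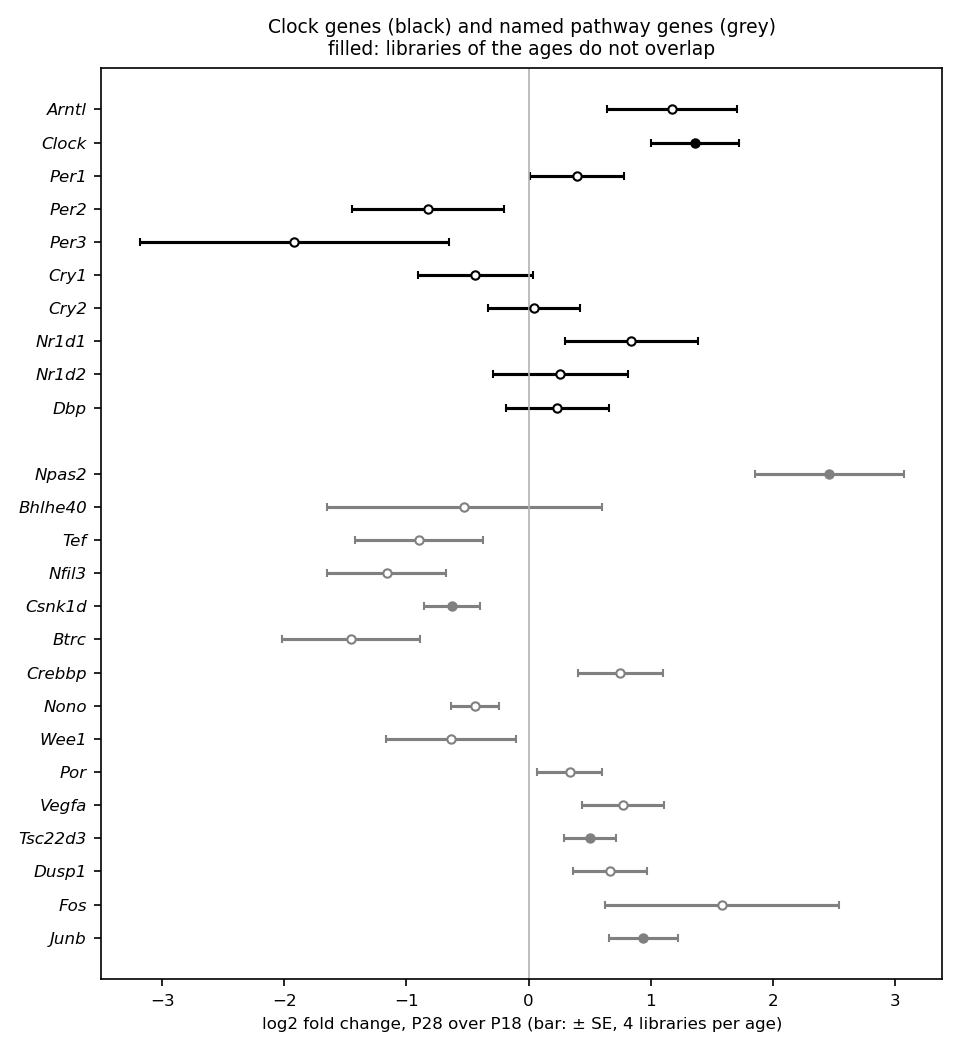
Log2 fold change of P28 over P18 (horizontal axis, bars ± SE) for the 10 clock genes (black) and 15 of the 16 pathway genes chosen by rule (grey); filled points mark genes without overlap between ages. Clock at 1.37 and Npas2 at 2.47 lie right of 0, and Per3 at -1.92 has the widest bar among the clock genes.

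Of 8 tested output genes, 6 had a log2 fold change above 0, with a median of 0.34. Vegfa, a vascular growth factor, Por, the electron donor of cytochromes P450, and Wee1, a mitotic kinase with E-box control, stood at 0.77 ± 0.33, 0.34 ± 0.27 and -0.64 ± 0.53 on the log2 scale of P28 over P18, and none of the 3 passed (edgeR adjusted p = 0.310, 0.618 and 0.640).

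Input genes were the glucocorticoid receptor gene, some of its targets, and cyclic AMP or immediate early response genes. Of the 12, 9 had a log2 fold change above 0, with a median of 0.37. Of all 10472 tested genes, 5267 were above 0. Junb, an immediate early factor, lay at 105, 181, 112 and 80.5 CPM in replicates 1 to 4 of P28, against 59.0, 71.0, 45.4 and 73.6 CPM in replicates 1 to 4 of P18. The ages did not overlap, and its log2 fold change was 0.94 ± 0.29 (edgeR adjusted p = 0.142). Tsc22d3, a glucocorticoid target, had one of 0.50 ± 0.21 and Dusp1 one of 0.67 ± 0.30 (edgeR adjusted p = 0.301 and 0.336). Without P28 replicate 4 that of Tsc22d3 was 0.29. Fos lay at 17.0, 264, 99.9 and 1.87 CPM in replicates 1 to 4 of P28, against 30.3, 17.9, 19.0 and 60.7 CPM in replicates 1 to 4 of P18 (log2 fold change 1.58 ± 0.96, edgeR adjusted p = 0.494). That value was 0.32 without P28 replicate 2, 0.56 with a replicate block and 0.62 with limma voom. For Junb, Dusp1 and Fos the highest P28 library was replicate 2, where Per1 and Per2 were lowest of that age.

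Some marker levels of the ligament and of neighbouring cells differed between the ages too. The summed level of 7 PDL fibroblast markers was 128623 to 177163 CPM at P28 and 82501 to 126859 CPM at P18, a sum made up almost wholly by the collagen genes Col1a1 and Col3a1 and by Postn. Within that list Fmod was higher at P28 (281 to 407 CPM, against 13.3 to 103 CPM at P18), while Tnmd was lower (51.1 to 133 CPM at P28, against 479 to 734 CPM at P18). Both were called by edgeR (adjusted p = 0.0264 for Fmod and 0.00608 for Tnmd). Neither gene overlapped between the ages, and Scx did (3.33 to 172 CPM at P28 and 19.4 to 32.6 CPM at P18). The sum of 5 osteoblast and cementoblast markers was 3777 to 8096 CPM at P28 and 1916 to 3406 CPM at P18, carried by Ibsp and Bglap. Of that list 1 gene was called by edgeR. Sp7 (34.6 to 110 CPM at P28 and 69.1 to 95.6 CPM at P18), Runx2 (147 to 269 CPM at P28 and 137 to 269 CPM at P18) and Dmp1 overlapped. Both sums separated the ages, the PDL fibroblast sum only narrowly, and Col1a1, Col3a1 and Postn each overlapped on their own. Among the named clock and pathway genes, Clock, Npas2, Junb and, narrowly, Tsc22d3 were higher at P28 without overlap, while Csnk1d was, narrowly, lower. The enamel organ sum of 5 markers was 5.62 to 638 CPM at P28 and 15.1 to 4790 CPM at P18, with P18 replicate 1 the highest. Its gene Ambn lay at up to 4.58 CPM at P28 and at 9.72 to 2329 CPM at P18, without overlap, and Ambn and Amtn were the 2 genes of that list called by edgeR (adjusted p = 0.0204 and 0.0188). The sum of 5 epithelial markers was 5425 CPM in P28 replicate 2 and 42.2 to 1002 CPM in the other P28 libraries, against 22.5 to 569 CPM at P18. Among the P28 libraries, replicate 2 was also highest for Arntl, Cry2, Junb and Fos, but lowest for Nr1d1, Dbp, Per1 and Per2. Replicate 4, with the lowest P28 sum, was lowest of that age for Junb and Fos. Its Arntl level was 83.6 CPM, against 87.1 CPM in P28 replicate 2. The osteoclast sum (4 markers, Calcr at or near 0) was 1020 to 7744 CPM at P28 and 1449 to 1701 CPM at P18. Within it Acp5 did not overlap, at 147 to 2632 CPM at P28 and 57.5 to 131 CPM at P18 (edgeR adjusted p = 0.0494). Ctsk (859 to 4663 CPM at P28 and 1351 to 1571 CPM at P18) and Mmp9 overlapped. The sums of the other 6 lists (neutrophil, erythroid, endothelium, macrophage, smooth muscle and pericyte, and Schwann cell) overlapped between the ages. Within them only Pecam1 (192 to 310 CPM at P28, 117 to 145 CPM at P18) and, narrowly, Cspg4 (48.3 to 143 CPM at P28, 25.1 to 47.5 CPM at P18) did not overlap. Of all tested genes 10.4% did not overlap either. Acta2, in the list of Cspg4, was mostly lower at P28 (4.79 to 37.6 CPM, against 35.4 to 112 CPM at P18). In the endothelium and the smooth muscle and pericyte lists 0 genes were called by edgeR. The part of these cells in the clock gene levels was not tested.

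The genes whose log2 CPM followed Dbp most closely over the 8 libraries, of 7730 compared outside the lists, were Mical1, Slc52a2, Lcmt1, Esrra and Myg1, with Pearson's r of 0.947, 0.888, 0.874, 0.870 and 0.868. Those that followed Arntl most closely were Gtf2f1, Rhot2, Srpx2, Dus3l and Lmo4, with r of 0.947, 0.943, 0.916, 0.914 and 0.910. These are descriptions of the same 8 libraries, picked as the highest of many.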

How the data were processed

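RNA-seq counts of cervical PDL from 4 rats at P28 and 4 at P18 were analysed; each library was taken as 1 animal, per the labels. The authors deposited raw counts per gene symbol and a normalized signal table of 12742 genes. In the deposited signal table, a library's values equal its counts times a fixed constant. Per the submitters' processing notes, the tools included edgeR 3.16.5, HTSeq 0.9.1 and STAR 2.5.3a, with the build rn6. What each tool did, the annotation and the strand setting are not stated there. A further 40 columns in each table belong to samples outside these 8 and stayed out of every step.

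Counts were tested in edgeR 4.0.16 by quasi-likelihood, run under R 4.3.3 (glmQLFit, glmQLFTest, TMM, expression filter by age with a minimum count of 10, age as the only term, Benjamini-Hochberg over 10472 genes). The SE is the size of the log2 fold change divided by the root of F. Log2 CPM used a prior count of 2. Single genes were also compared by exact permutation (2-sided). Alternatives were DESeq2 1.42.0 (size factors; Wald test), upper-quartile scaling, the authors' constants, other filters, limma 3.58.1 voom with quality weights, a replicate block and leaving out each library. Depth was 5252693 to 26645656 counts; the limit for a 0 covers counting error only, since PCR copies are not separate molecules.

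The members, lists and tests were chosen with earlier results of these data known. The rule named all 10 members, up to 4 genes with the lowest p in each of 4 pathway lists, and the 5 genes most like Dbp and Arntl with a mean log2 CPM of at least 3. Pathway genes without an entry in the table are not analysed here, and 1 pathway gene chosen by the rule is counted but not reported by name. A total of 14821 symbols of the table matched a RefSeq symbol (GRCr8), which served for names, neighbours and promoters.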

Additional observations from a re-analysis of the deposited data

Results flagged for a closer look

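In each age, the highest and lowest of the 4 libraries were compared with the rest for the 10 members and 16 pathway genes chosen by rule, and a sample far from the others was found in 4 of 52 groups, where chance gives about 1 in 20. Nr1d1 was low in P18 replicate 1, at 15.8 CPM, against 51.4 to 61.6 CPM in the other P18 libraries. Tef was high in P18 replicate 2, at 111 CPM (54.9 to 60.9 CPM in the others). Nono was low in P18 replicate 1, at 185 CPM (229 to 230 CPM in the others). Por was low in P18 replicate 4, at 51.2 CPM (105 to 112 CPM in the others).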

How the results depend on the processing

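The count of called members was 0 in 15 of 16 alternatives and 1 (Clock) with the DESeq2 Wald test. For the pathway genes it was 0 in the main analysis, 2 with the DESeq2 Wald test (Npas2 among them), 2 with voom (Crebbp among them, adjusted p = 0.0479, range over the alternatives 0.0479 to 0.602) and 0 to 1 leaving out 1 library. Over all genes it was 98 in the main analysis, 552 with the DESeq2 Wald test, 307 with voom and 9 to 215 leaving out 1 library (9 without P18 replicate 2, 215 without P28 replicate 4). Same-numbered animals of the ages did not deviate together (correlations of -0.0196 to 0.00189), so the numbers were not taken as pairs; with a replicate block 26 genes were called, and 0 members. Of 160 member values, 152 kept their sign and side of the threshold. Signs changed for Cry2 with voom (-0.060) and without P28 replicate 2 (-0.08), P18 replicate 1 (-0.02) or P18 replicate 3 (-0.13; range over left-out libraries -0.13 to 0.30), for Nr1d2 without P28 replicate 1 (-0.092) or P28 replicate 3 (-0.04; range -0.092 to 0.68), for Dbp without P28 replicate 1 (-0.25; range -0.25 to 0.52), and for Bhlhe40 without P18 replicate 3 (0.020; range -1.48 to 0.020). The cause was not tested. The median SE over all genes was 0.49, and the lowest depth was 5252693 counts, in P28 replicate 4; without that library 0 members were called.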
